A study of Mus musculus with 8 samples.

Results

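The 34 genes described here are the chaperones and stress sensors that keep proteins folded in 3 compartments of the cell: 10 genes of the cytosolic heat shock system, 2 of the mitochondrial chaperonin, and 22 of the endoplasmic reticulum (ER), of which 14 fold or degrade proteins and 8 are the sensors, transcription factors and targets of the unfolded protein response (UPR). They were taken by name, and the rule uses no measured value. All 34 were found among the 31417 genes of the count table and all passed the filter on low counts, which left 16228 genes. Poly(A) RNA was sequenced from the hippocampus of mice aged 12 months: 4 libraries from Dclk3 knockout animals (KO) and 4 from wild-type controls (WT). Dclk3 encodes doublecortin-like kinase 3, a brain-enriched serine/threonine kinase. RNA was taken from 1 hippocampus per sample. Not given in the sources used here are the strain, the sex, the part of Dclk3 that was deleted and how many animals were used, so p-values measure only the spread between these libraries, which may be technical.

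Chaperones bind unfolded stretches of other proteins and release them folded. In the cytosol, HSP70 proteins work with J-domain partners and nucleotide exchange factors and pass clients to HSP90, and the transcription factor HSF1 raises their genes when unfolded protein accumulates. In the ER, the chaperone BiP holds the sensors IRE1, PERK and ATF6 inactive until unfolded protein draws it away. The sensors then raise ER chaperones through XBP1 and ATF6, and slow translation while favouring ATF4 and its target CHOP. Neurons depend on both systems, because their synaptic and membrane proteins are made in large amounts and they do not divide.

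Libraries held 29301974 to 36552757 counts. Dclk3 was lower in every KO library (5.92 to 9.29 CPM, counts scaled by library size) than in every WT library (20.8 to 39.3 CPM), in keeping with the labels, although edgeR did not call it over all genes (log2 fold change -1.79, adjusted p = 0.234). All 10 markers of hippocampal excitatory neurons passed the filter. Between genotypes 5 of them lay above and 5 below a log2 fold change of 0, with a median of -0.029. Slc17a7, the vesicular glutamate transporter, had the lowest p of the 10 (edgeR adjusted p = 0.796). Its WT mean was 1704 ± 193 CPM against a KO mean of 1483 ± 62.0 (SD over 4 libraries each, as throughout). WT replicate 2 stood apart from the other libraries: it lay at 35.8 on the first principal component, against -26.1 to 15.0 for the others. It had 1805 CPM of the astrocyte gene Gfap, against 442 to 578 CPM in the others. Astrocyte genes did not all rise there. Aldoc and Slc1a3, the 2 of 9 astrocyte genes with the lowest p between genotypes, were lowest in WT replicate 2, at 828 and 833 CPM. The other libraries had 950 to 1278 CPM of Aldoc and 887 to 1044 CPM of Slc1a3. The choroid plexus transcript Ttr ranged from 31.8 CPM in WT replicate 4 to 3158 CPM in KO replicate 2.

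No chaperone or UPR gene passed a test between the genotypes. edgeR's quasi-likelihood test called 0 of the 34 at a Benjamini-Hochberg adjusted p under 0.05, with adjusted p from 0.797 to 0.9997, where it called 0% of all genes tested. DESeq2 and limma-voom also called 0 of the 34, against 0.0224% and 0% of all genes. At an unadjusted p under 0.05 the count was 0 of 34, where 6.16% of all genes passed (3.96% higher and 2.20% lower in KO). In 0 of 34 genes did the KO and WT libraries separate without overlap, against 3.80% of all genes. None of the 34 had a log2 fold change beyond 0.2 in size, which 20.0% of all genes had. The 95% interval lay within 0.5 of 0 on the log2 scale for 33 of the 34, the exception being Trib3, so changes above that size were outside the interval for those 33. In bulk tissue, a change in the number of cells of a type and a change in RNA per cell cannot be told apart.

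**Figure D1:**
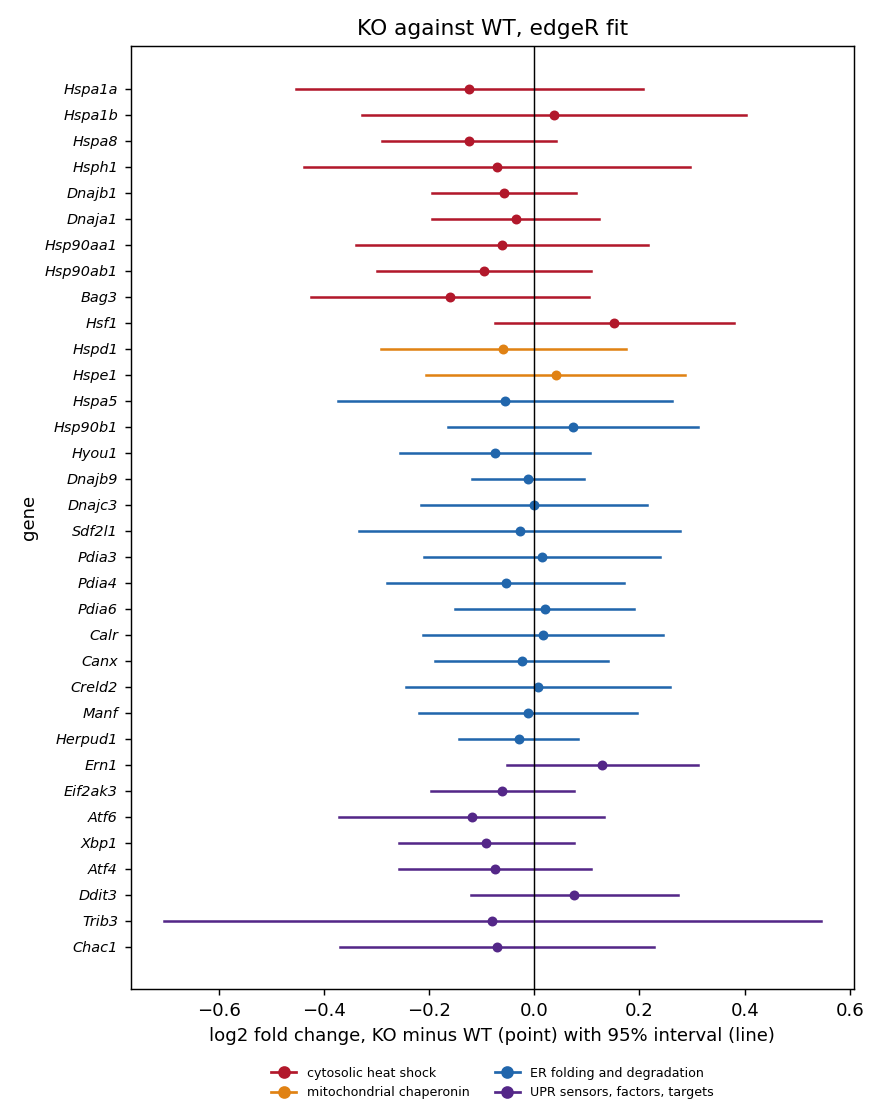
The log2 fold change of each gene, KO minus WT (point), with its 95% interval from the edgeR fit (line) on the horizontal axis, genes in rows and compartments by colour. Every interval spans 0, the narrowest for Dnajb9 and the widest for Trib3.

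Levels were compared between genes as CPM per kilobase of annotated exon, averaged over the 8 libraries. Hsp90ab1, the constitutive cytosolic HSP90, stood far above the others at 624 CPM per kilobase. The ER lectin chaperones calreticulin (Calr) and calnexin (Canx) followed at 128 and 98.7, then Hsp90b1, the ER member of the HSP90 family, at 86.7. Their ranges over libraries ran from 111 to 144, from 88.6 to 109 and from 74.98 to 106 CPM per kilobase, so Canx and Hsp90b1 overlapped and every Calr value lay above both. Hspa5 (BiP), Pdia3 and Hspa8, the constitutive cytosolic HSP70, formed one level at 67.9, 66.9 and 60.6 CPM per kilobase, with overlapping ranges. The stress-inducible HSP70 genes Hspa1a and Hspa1b were near the bottom at 1.44 and 1.79, with the sensor Ern1 between them at 1.74 and all 3 ranges overlapping. Trib3 lay lowest, at 0.215. Within the cytosolic group levels spanned 433-fold, and within the ER folding group 23.0-fold. Levels of Hspa8, Hsp90ab1, Hspd1 and Hspe1 are uncertain because processed pseudogenes can take their reads, and Hspa1a and Hspa1b are near-identical copies.

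**Figure D2:**
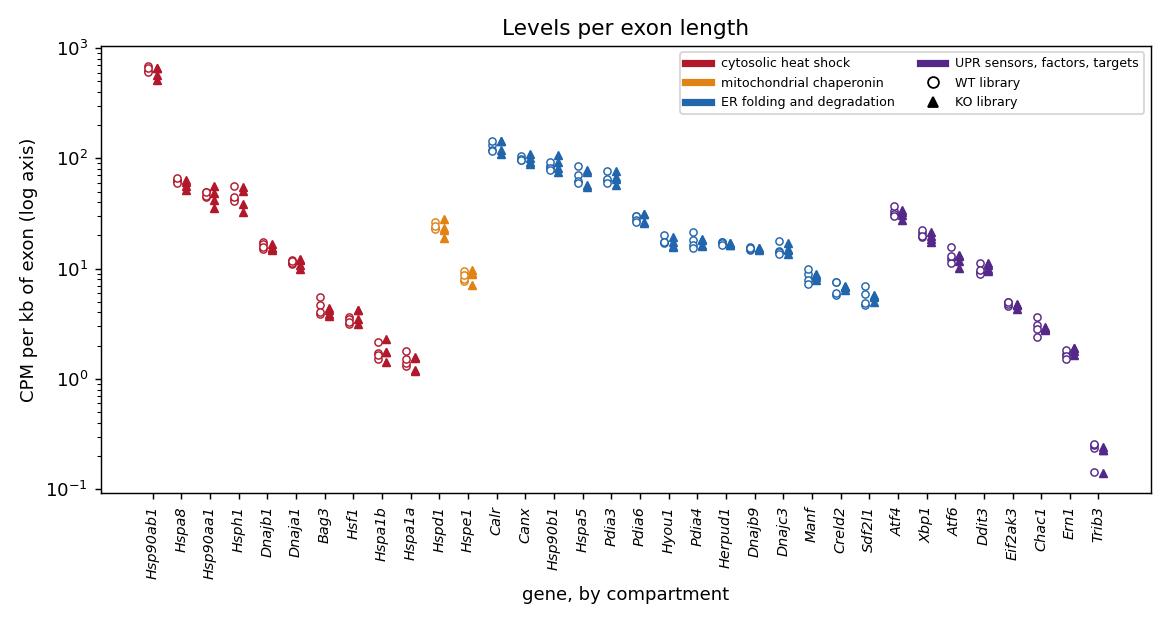
Level of each gene in each library as CPM per kilobase of exon (log axis), genes ordered by level within compartment; open circles are WT libraries and filled triangles KO libraries. Hsp90ab1 lies highest and Trib3 lowest, and the symbols of both genotypes overlap for every gene.

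In the cytosolic group, 8 of 10 genes had a log2 fold change below 0, with a median of -0.066, against 49.9% of all genes below 0 and a median of all genes of 0.00029. With 1 library left out, the median ran from -0.15 (KO replicate 4) to -0.00054 (KO replicate 1). Hsp90ab1 (ENSMUSG00000023944, mm10 17:45567775 to 45573271, minus strand) had 1874, 2055, 1835 and 1964 CPM in WT replicates 1 to 4, and 1543, 1702, 1990.4 and 1998 CPM in KO replicates 1 to 4. For Hsp90ab1 the fitted KO to WT difference was -0.10 on the log2 scale (SE 0.091, edgeR adjusted p = 0.858). KO replicates 1 and 2 lay below all WT libraries, while KO replicates 3 and 4 lay inside the WT range. Hspa8 stood at 273, 267, 259 and 288 CPM in WT replicates 1 to 4, and 221, 241, 272 and 264 CPM in KO replicates 1 to 4. For Hspa8 the fitted KO to WT difference was -0.12 on the log2 scale (SE 0.075, edgeR adjusted p = 0.797). Here KO replicates 3 and 4 again lay within the WT range and KO replicates 1 and 2 below it. Hsp90aa1, the stress-responsive HSP90, had 177, 196, 178 and 195 CPM in WT replicates 1 to 4, and 138, 165, 191 and 222 CPM in KO replicates 1 to 4. For Hsp90aa1 the fitted KO to WT difference was -0.061 on the log2 scale (SE 0.12). Its lowest and highest values were both KO libraries. Hsph1 (ENSMUSG00000029657, mm10 5:149614287 to 149636376, minus strand), the HSP110 exchange factor of HSP70, had 313, 412, 296 and 325 CPM in WT replicates 1 to 4, and 239.6, 280.3, 364 and 398 CPM in KO replicates 1 to 4. For Hsph1 the fitted KO to WT difference was -0.071 on the log2 scale (SE 0.16). Its within-genotype SD of 0.28 on the log2 scale was larger than in 97.3% of genes at a like level.

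The J-domain co-chaperone Dnajb1 was steadier, at 55.8, 53.2, 48.4 and 50.6 CPM in WT replicates 1 to 4, and 47.6, 49.4, 53.7 and 49.2 CPM in KO replicates 1 to 4. For Dnajb1 the fitted KO to WT difference was -0.057 on the log2 scale (SE 0.062). Its highest library was 1.17 times its lowest. Its relative Dnaja1 had a WT mean of 99.2 ± 3.48 CPM against a KO mean of 96.8 ± 9.24. Bag3, which links HSP70 clients to autophagy, had a WT mean of 11.6 ± 1.86 CPM against a KO mean of 10.4 ± 0.783 (log2 fold change -0.16, SE 0.12, edgeR adjusted p = 0.824), with WT replicate 2 the highest at 14.1 CPM; without that library its log2 fold change was -0.052. Hspa1a and Hspa1b, the inducible HSP70 pair, together held 11.3, 8.73, 8.45 and 9.11 CPM in WT replicates 1 to 4 and 7.51, 8.53, 9.62 and 11.04 CPM in KO replicates 1 to 4. WT replicate 1 and KO replicate 4 were the highest and the genotypes overlapped. Hsf1, the regulator of the group, went the other way from most of it, at 26.0, 22.4, 24.8 and 23.5 CPM in WT replicates 1 to 4 and 30.2, 25.0, 30.0 and 22.2 CPM in KO replicates 1 to 4 (log2 fold change 0.15, SE 0.10, edgeR adjusted p = 0.805). KO replicates 1 and 3 had the highest Hsf1 and KO replicate 4 the lowest. Without KO replicate 4 the log2 fold change was 0.23 and the unadjusted edgeR p was 0.022 (adjusted p = 0.399). Leaving out that library also moved the count of all genes at an unadjusted p under 0.05 from 1000 to 1777.

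In the ER folding and degradation group, 6 of 14 genes lay above and 8 below 0, with a median log2 fold change of -0.012. Without WT replicate 2 that median was 0.055, on the other side of 0. Hspa5 (ENSMUSG00000026864, mm10 2:34771970 to 34777547, plus strand), which encodes BiP, had 298, 358, 262 and 253 CPM in WT replicates 1 to 4, and 234, 245, 316 and 332 CPM in KO replicates 1 to 4. For Hspa5 the fitted KO to WT difference was -0.055 on the log2 scale (SE 0.14, edgeR adjusted p = 0.953). WT replicate 2 was the highest and KO replicate 1 the lowest, and the means differed by less than the SD of either group. Hsp90b1 (ENSMUSG00000020048, mm10 10:86690209 to 86705509, minus strand) had 341, 375, 332 and 314 CPM in WT replicates 1 to 4, and 302, 327, 376 and 429 CPM in KO replicates 1 to 4. For Hsp90b1 the fitted KO to WT difference was 0.074 on the log2 scale (SE 0.11, edgeR adjusted p = 0.906). Both its lowest and its highest value were in KO. Calr had 383, 410.3, 344 and 334 CPM in WT replicates 1 to 4, and 319, 343, 413 and 414 CPM in KO replicates 1 to 4. For Calr the fitted KO to WT difference was 0.017 on the log2 scale (SE 0.10). Canx had a WT mean of 467 ± 18.0 CPM against a KO mean of 459.6 ± 41.4. Both lectin chaperones overlapped between genotypes. Among the disulfide isomerases, Pdia4 had 43.8, 51.6, 39.1 and 36.8 CPM in WT replicates 1 to 4, and 38.4, 39.2, 43.2 and 44.3 CPM in KO replicates 1 to 4. For Pdia4 the fitted KO to WT difference was -0.054 on the log2 scale (SE 0.10). Pdia3 had a WT mean of 209 ± 23.2 CPM against a KO mean of 211 ± 25.7, and Pdia6 a WT mean of 106 ± 6.11 CPM against a KO mean of 108 ± 10.7. For all 3 isomerases the genotype means differed by less than the SD of either group.

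The co-chaperones of BiP were likewise level. Hyou1, its exchange factor, had a WT mean of 130.2 ± 10.2 CPM against a KO mean of 124 ± 12.2. The J-domain proteins Dnajc3 and Dnajb9 had a WT mean of 77.5 ± 10.1 CPM against a KO mean of 77.5 ± 7.38 and a WT mean of 38.7 ± 0.922 CPM against a KO mean of 38.4 ± 0.609 in that order. Dnajb9 stood at 39.9, 37.8, 38.3 and 38.9 CPM in WT replicates 1 to 4, and 38.9, 38.9, 37.7 and 38.0 CPM in KO replicates 1 to 4. It varied by 1.06-fold over the 8 libraries, and its within-genotype SD of 0.029 was the lowest of the 34. Only 0.539% of 2413 genes at a like level varied less. Herpud1, which serves ER-associated degradation, was nearly as steady, with a WT mean of 39.9 ± 1.19 CPM against a KO mean of 39.1 ± 1.18 and 3.95% of like genes varying less. Of the smaller ER stress genes, Sdf2l1 had 7.71, 6.58, 5.24 and 5.40 CPM in WT replicates 1 to 4, and 6.31, 6.45, 5.54 and 6.18 CPM in KO replicates 1 to 4. Manf, which encodes a secreted protein held in the ER by BiP, had 31.5, 34.8, 28.1 and 25.6 CPM in WT replicates 1 to 4, and 31.2, 27.5, 30.7 and 29.6 CPM in KO replicates 1 to 4. In both genes WT replicates 1 and 2 were above WT replicates 3 and 4. Creld2 had a WT mean of 9.18 ± 1.38 CPM against a KO mean of 9.23 ± 0.278.

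The 8 UPR sensors, factors and targets had 2 genes above and 6 below 0, with a median log2 fold change of -0.072, which was -0.017 without WT replicate 2. Among the sensors, Ern1 (IRE1) had 13.7, 14.9, 13.2 and 12.5 CPM in WT replicates 1 to 4, and 15.6, 13.5, 14.8 and 15.4 CPM in KO replicates 1 to 4. For Ern1 the fitted KO to WT difference was 0.13 on the log2 scale (SE 0.082, edgeR adjusted p = 0.797). KO replicates 1 and 4 lay above the WT range and KO replicates 2 and 3 within it. Eif2ak3 (PERK) had a WT mean of 28.9 ± 1.26 CPM against a KO mean of 27.7 ± 1.33. Atf6 had a WT mean of 120.0 ± 17.3 CPM against a KO mean of 111 ± 13.4 (log2 fold change -0.12, SE 0.11). Atf6 was highest in WT replicate 2, at 144 CPM, and its log2 fold change was -0.016 without that library. Of the transcription factors, Atf4, the most abundant of the group per length, had 78.8, 87.1, 73.3 and 71.2 CPM in WT replicates 1 to 4, and 80.3, 76.8, 72.3 and 65.2 CPM in KO replicates 1 to 4. For Atf4 the fitted KO to WT difference was -0.075 on the log2 scale (SE 0.082). Xbp1 had a WT mean of 66.9 ± 4.57 CPM against a KO mean of 62.9 ± 5.55 (log2 fold change -0.091, SE 0.075). Ddit3 (CHOP) had 19.1, 16.1, 15.4 and 16.7 CPM in WT replicates 1 to 4, and 19.2, 16.2, 18.5 and 17.0 CPM in KO replicates 1 to 4. For Ddit3 the fitted KO to WT difference was 0.077 on the log2 scale (SE 0.089). Gene counts do not show the spliced form of Xbp1, the cleavage of ATF6 or the translation of Atf4, the steps at which these factors are known to be switched on. Of the downstream targets, Chac1, a glutathione-degrading enzyme, had a WT mean of 4.87 ± 0.834 CPM against a KO mean of 4.64 ± 0.126. Trib3, a pseudokinase, had 0.501, 0.530, 0.546 and 0.304 CPM in WT replicates 1 to 4, and 0.517, 0.298, 0.484 and 0.480 CPM in KO replicates 1 to 4. WT replicate 4 and KO replicate 2 were its lowest libraries. Trib3 rested on 9 to 19 counts per library, so only a large change would have been detectable at this depth (95% interval of the log2 fold change -0.70 to 0.55).

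The mitochondrial chaperonin consists of HSP60 (Hspd1) and its lid HSP10 (Hspe1), whose genes lie head to head. Hspd1 had 61.8, 69.3, 60.7 and 63.9 CPM in WT replicates 1 to 4, and 50.6, 58.8, 61.3 and 74.9 CPM in KO replicates 1 to 4. For Hspd1 the fitted KO to WT difference was -0.059 on the log2 scale (SE 0.11). Hspe1 had 14.0, 11.3, 11.8 and 13.0 CPM in WT replicates 1 to 4, and 14.3, 13.3, 13.5 and 10.5 CPM in KO replicates 1 to 4. For Hspe1 the fitted KO to WT difference was 0.041 on the log2 scale (SE 0.11). KO replicate 4 was the highest library for Hspd1 and the lowest for Hspe1, and KO replicate 1 the reverse.

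Promoter sequences of 27 of the 34 genes were in the RefSeq table (GRCm38.p6, the same build as mm10), and the 250 bases before each start were searched on both strands; Hspa8, Hsp90aa1, Hsp90ab1, Hsf1, Hyou1, Manf and Atf6 had no entry. Only exact matches to the letters and spacing given were counted, so an element with a changed base would be missed. The sequences shown are those that hold a heat shock or ER stress element, and 1 with the ATF4 element. The 27 were counted once per gene, with a match in any of a gene's entries. The shares beside them are of all 32851 promoter entries, which belong to 27025 genes, so the units differ. The heat shock element, the units GAA, TTC and GAA with 2 bases between neighbours, was found in 2 of the 27, Hspd1 and Hspe1, against 0.466% of 32851 promoters. It is one and the same stretch, chr1:55088053-55088082, read on opposite strands, with 2 overlapping matches in capitals:
Hspd1: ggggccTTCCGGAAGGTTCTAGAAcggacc
Hspe1: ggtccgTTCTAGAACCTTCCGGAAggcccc
The shorter GAANNTTC, which lies within the element, was also found in Hspa1a, Hspa1b and Dnaja1, against 6.69% of all promoters, and TTCNNGAA in Hsph1 and Eif2ak3 beside the chaperonin pair, against 7.17%.

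The ER stress element, CCAAT and CCACG with 9 bases between them, was found in 7 of the 27, all of them among the 12 ER folding and degradation genes with an entry, against 0.113% of all promoters. These windows of 30 bases, 5′ to 3′ on the gene's strand with the element in capitals (its reverse complement in Hsp90b1, Calr and Creld2), lie at chr2:34772020-34772049, chr10:86705527-86705556, chr14:118937822-118937851, chr12:17266486-17266515, chr8:84847069-84847098, chr11:50325794-50325823 and chr15:88819515-88819544 in the order shown:
Hspa5: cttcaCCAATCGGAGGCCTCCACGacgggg
Hsp90b1: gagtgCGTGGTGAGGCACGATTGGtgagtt
Dnajc3: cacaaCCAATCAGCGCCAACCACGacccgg
Pdia6: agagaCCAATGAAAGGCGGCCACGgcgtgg
Calr: caacgCGTGGTCGACCCTCATTGGcccata
Canx: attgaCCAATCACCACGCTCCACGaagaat
Creld2: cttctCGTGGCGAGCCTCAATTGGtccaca
Hsp90b1 held a second match further from its start. ER stress element II, ATTGG and CCACG with 1 base between them, was found in Herpud1 alone of the 27, against 0.0304% of all promoters, and the ATF4 element TGATGNAA in Herpud1 and Chac1, against 3.45%. The UPR element TGACGTGG was found in 0 of the 27 and in 0.563% of all promoters. Windows for Herpud1 (chr8:94386368-94386397, ER stress element II in capitals) and Chac1 (chr2:119351038-119351067, reverse complement of the ATF4 element in capitals) follow:
Herpud1: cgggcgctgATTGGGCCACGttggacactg
Chac1: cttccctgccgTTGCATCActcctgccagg
A match is a description of the sequence and shows no binding.

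Libraries of one genotype also differed among themselves. KO replicate 1 was the lowest library for 18 of the 34 genes, against 22.3% of all genes, and WT replicate 2 the highest for 12 of 34, against 18.9%. KO replicate 4 was the highest for 8 of 34, against 15.5%. KO replicates 1 and 2 both lay below KO replicates 3 and 4 in 20 of the 34 genes, where 26.1% of all genes did so; this split was chosen after the values were seen. By compartment it held for 8 of 10 cytosolic genes, 1 of the 2 chaperonin genes, 9 of 14 ER folding genes and 2 of 8 UPR genes. The median within-genotype SD was 0.17 in the cytosolic, 0.16 in the ER folding and 0.13 in the UPR group on the log2 scale. It was 0.15 for all genes, which include genes at every level. Beside genes at a like level, 22 of the 34 had an SD above the 50th percentile, 11 above the 75th and 2 below the 10th. Above the 50th percentile were 7 of 10 cytosolic, 10 of 14 ER folding and 3 of 8 UPR genes.

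**Figure D3:**
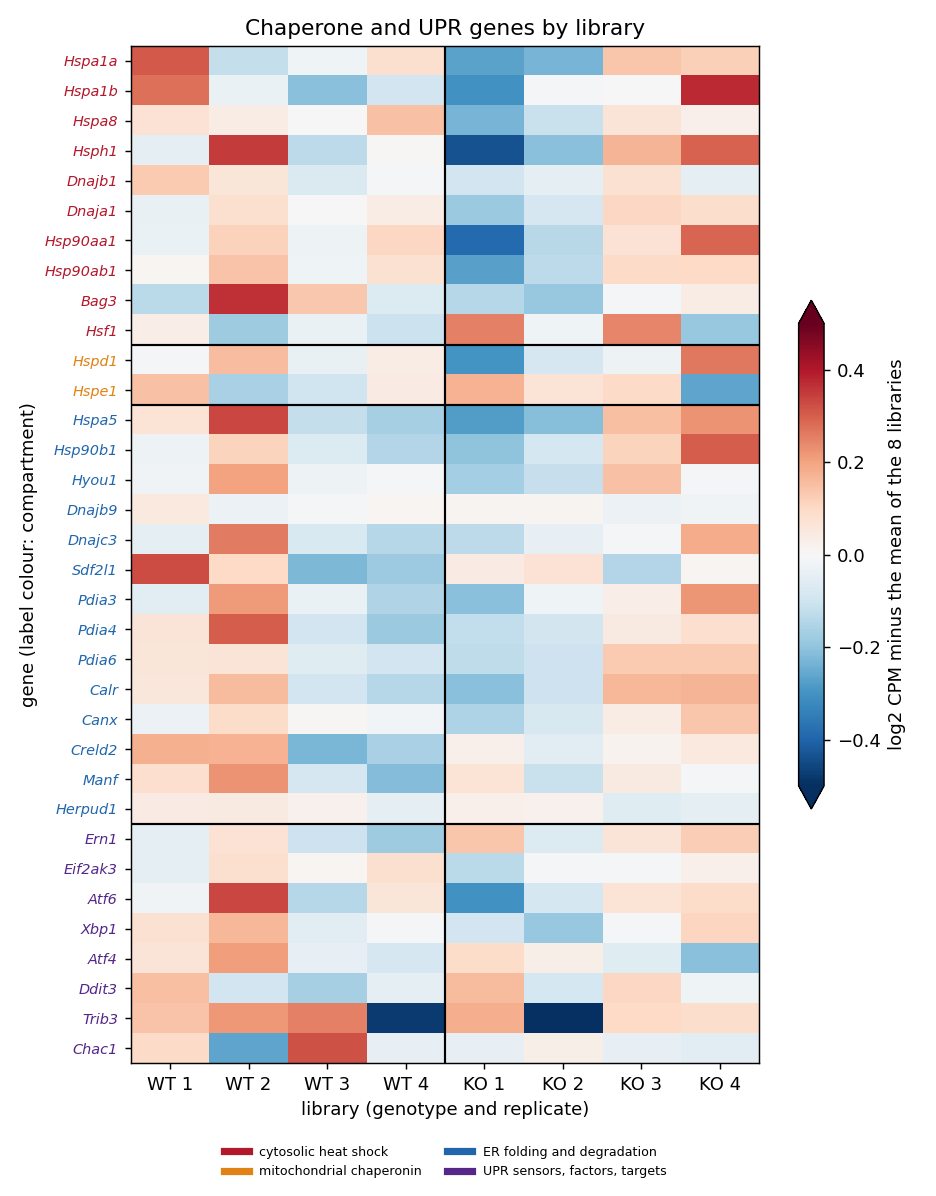
Log2 CPM of each gene minus its mean over the 8 libraries (colour; values beyond 0.5 in size take the end colour), genes in rows grouped by compartment and libraries in columns. KO replicate 1 is the lowest library for 8 of 10 cytosolic and 7 of 14 ER folding genes, while Dnajb9 and Herpud1 stay near 0 throughout.

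The mean of centred log2 CPM over a compartment's genes was compared between libraries. For the cytosolic group it was 0.058, 0.082, -0.038 and 0.017 in WT replicates 1 to 4 and -0.21, -0.12, 0.10 and 0.11 in KO replicates 1 to 4. For the ER folding group it was 0.054, 0.16, -0.078 and -0.12 in WT replicates 1 to 4 and -0.10, -0.065, 0.046 and 0.10 in KO replicates 1 to 4. KO replicates 1 and 2 were low and KO replicates 3 and 4 high in both groups. The compartments parted in WT replicate 4, where the cytosolic mean was 0.017 and the ER mean -0.12, and in KO replicate 1, where the cytosolic mean was the lower by 0.11. The cytosolic minus the ER mean was 0.025 ± 0.089 in WT and -0.025 ± 0.068 in KO, a difference smaller than either SD. The UPR group spanned less, from -0.11 in KO replicate 2 to 0.089 in WT replicate 2. Its mean includes Trib3, which lay at -0.50 in KO replicate 2 and -0.48 in WT replicate 4 on 9 counts in each.

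**Figure D4:**
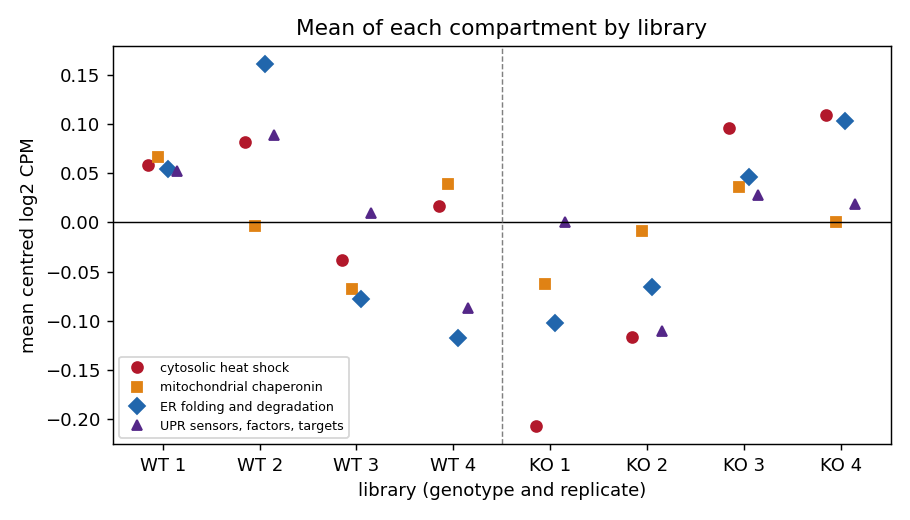
Mean centred log2 CPM of each compartment (vertical axis) in each library (horizontal axis), WT to the left of the dashed line and KO to the right. Both genotypes hold libraries above and below 0, and the lowest point is the cytosolic group in KO replicate 1.

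Other measures differed between the same libraries. The mean over the 10 excitatory neuron markers was 0.095, 0.074, -0.14 and 0.10 in WT replicates 1 to 4 and -0.26, -0.051, 0.093 and 0.086 in KO replicates 1 to 4, lowest in KO replicate 1 as for the cytosolic chaperones. The median centred log2 CPM of 1484 genes with under 1500 bases of exon was 0.067, -0.11, 0.0074 and -0.030 in WT replicates 1 to 4 and 0.13, 0.068, -0.0042 and -0.080 in KO replicates 1 to 4. It was opposite in sign to the ER folding mean in 6 of the 8 libraries and of the same sign in WT replicates 1 and 4. Against the cytosolic mean it was opposite in every library except WT replicate 1. For 4829 genes with over 6000 bases of exon the median was -0.012, 0.027, -0.011 and 0.026 in WT replicates 1 to 4. In KO replicates 1 to 4 it was -0.056, -0.043, 0.013 and 0.059. KO replicates 1 and 2 thus lay below KO replicates 3 and 4 in the long-exon genes too. Immediate early genes ranged from -0.38 in KO replicate 1 to 0.47 in KO replicate 3. Srsf5, a splicing factor 1 of the 4 temperature-linked genes listed, had 78.8, 69.9, 105 and 78.3 CPM in WT replicates 1 to 4, and 125, 124, 94.6 and 78.2 CPM in KO replicates 1 to 4. The cold-inducible Cirbp had 65.4, 57.4, 75.6 and 68.0 CPM in WT replicates 1 to 4, and 77.1, 78.8, 55.5 and 54.3 CPM in KO replicates 1 to 4. KO replicates 1 and 2, the lowest in the cytosolic mean, were the highest libraries for both and for Rbm3, also cold-inducible, at 17.6 and 19.3 CPM. Hspb6, a small heat shock protein gene and the fourth on that list, had its lowest value in KO replicate 1, at 2.88 CPM, and its highest in WT replicate 2, at 9.13 CPM. Of the 4 temperature-linked genes 2 lay above and 2 below 0 between genotypes, of 15 immediate early genes 7 and 8, and of 12 glucocorticoid and clock genes 8 and 4. The part of these in the chaperone levels was not tested. Markers of other cell types summed over their lists to 7466 to 8961 CPM in WT and 7545 to 8923 CPM in KO for 9 astrocyte genes, and to 3587 to 5124 and 4384 to 4920.1 CPM for 8 oligodendrocyte genes. The sums were 588 to 680.3 and 628 to 724 CPM for 9 microglial genes, and 319 to 371 and 323 to 469 CPM for 8 endothelial genes. All of these genes passed the filter on low counts. Choroid plexus genes summed to 78.4 to 2267 CPM in WT and 196 to 3496 CPM in KO, highest in KO replicate 2, where the ER folding mean was -0.065, and next in WT replicate 2, where it was 0.16. All 8 oligodendrocyte, 9 microglial and 8 endothelial genes lay above 0 between genotypes, with median log2 fold changes of 0.15, 0.070 and 0.080. Of 10 choroid plexus genes 9 lay above and 1 below 0 (median 0.32), and of 9 astrocyte genes 7 and 2 (median 0.054). Of all genes 49.9% lay below 0. The endothelial mean of centred log2 CPM was 0.34 in KO replicate 4, but -0.16 and -0.087 in KO replicates 2 and 3. In these 5 lists 0 genes were called by edgeR, against 0% of all genes. Mobp, a myelin gene, had a WT mean of 517 ± 106 CPM against a KO mean of 647 ± 45.8 (edgeR adjusted p = 0.796).

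Co-variation of 8 gene pairs was measured over the 8 libraries on log2 CPM. Hspa5 and Hsp90b1 varied together, with Pearson r = 0.87 (exact permutation p = 0.00414, adjusted p = 0.0166) and Spearman rho = 0.90 (exact permutation p = 0.00456, adjusted p = 0.0365). Without WT replicate 2 and KO replicate 1, the libraries farthest from the median of Hspa5, r was 0.90, and r of deviations from the genotype means was 0.93. Hspa5 with Pdia4 gave Pearson r = 0.92 (exact permutation p = 0.00171, adjusted p = 0.0137) and Spearman rho = 0.86 (exact permutation p = 0.0107, adjusted p = 0.0429), and r = 0.91 without the same 2 libraries. Hspa5 and Hsp90b1 hold an exact match to the ER stress element in the window searched, and Pdia4 had no exact match there. As a background, 1.11% of all tested genes followed Hspa5 at least as closely as Hsp90b1 did, and 0.259% at least as closely as Pdia4. With 1 library left out, the first pair missed the threshold without KO replicate 1 (exact permutation, adjusted p = 0.0593) and the second without WT replicate 2 (adjusted p = 0.0556). Hspd1 and Hspe1 share the promoter stretch printed above and varied in opposite directions, with Pearson r = -0.83 (exact permutation p = 0.00687, adjusted p = 0.0183) and Spearman rho = -0.71 (exact permutation p = 0.0576, adjusted p = 0.154). Spearman's rho missed the threshold. Without KO replicates 1 and 4, r was -0.60. With 1 library left out r stayed between -0.88 and -0.70. It missed the threshold by exact permutation when KO replicate 4 (adjusted p = 0.127), WT replicate 2 (0.0984) or KO replicate 1 (0.0593) was the library left out. As a background, 4.47% of all genes ran as far against Hspd1. Their exons also share 112 bases on opposite strands, and the exons of Hspe1 are short at 1474 bases against 2642 for Hspd1.

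**Figure D5:**
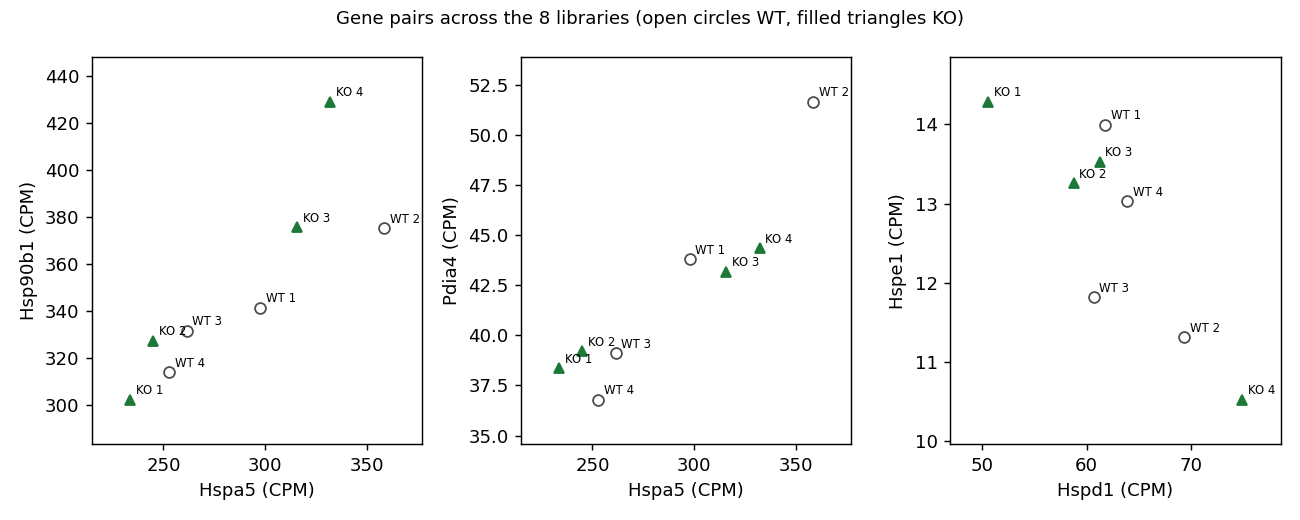
CPM of 1 gene against another in the 8 libraries for Hspa5 with Hsp90b1, Hspa5 with Pdia4 and Hspd1 with Hspe1; open circles are WT and filled triangles KO libraries. The first 2 pairs rise together and the third falls, with KO replicates 1 and 4 at its ends.

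The other 5 pairs did not pass. Within the cytosol, Dnajb1 and Hsph1 had r = 0.50 (exact permutation p = 0.209), rho = 0.50 (exact permutation p = 0.216), and r = 0.75 without its 2 farthest libraries. Hsp90aa1 and Dnajb1 had r = 0.34 (exact permutation p = 0.422), rho = 0.24 (exact permutation p = 0.582), and r = 0.34 without its 2 farthest libraries. In the ER, Sdf2l1 and Manf had r = 0.56 (exact permutation p = 0.151), rho = 0.67 (exact permutation p = 0.0831), and r = 0.56 without its 2 farthest libraries. In the UPR group, Ddit3 and its target Trib3 had r = 0.24 (exact permutation p = 0.563), rho = -0.17 (exact permutation p = 0.703), and r = -0.034 without its 2 farthest libraries. Across compartments, Dnajb1 and Hspa5 had r = 0.60 (exact permutation p = 0.117), rho = 0.50 (exact permutation p = 0.216), and r = 0.69 without its 2 farthest libraries. Over these 5, adjusted p ran from 0.235 to 0.563 for r and from 0.166 to 0.703 for rho, by exact permutation. The few counts of Trib3 limit the precision of its pair. Hsp90aa1 with Dnajb1 turned to r = -0.062 without KO replicate 1.

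The wider machinery of each compartment gave 0 called genes and 0 at an unadjusted p under 0.05 by edgeR in each of 4 lists. The shares over all genes were 0% and 6.16%. Of 38 other cytosolic chaperones and co-chaperones, including the chaperonin CCT, 6 lay above and 32 below 0, with a median log2 fold change of -0.063. Those with the lowest p were the J-domain genes Dnaja2, with a WT mean of 202 ± 6.34 CPM against a KO mean of 187 ± 14.4, and Dnajb4, with a WT mean of 65.5 ± 2.47 CPM against a KO mean of 61.4 ± 3.33, and the HSP70 gene Hspa2, with a WT mean of 61.7 ± 5.00 CPM against a KO mean of 56.7 ± 3.01. Of 13 other mitochondrial chaperones and proteases, 3 lay above and 10 below 0 (median -0.030). Dnaja3, the mitochondrial J-domain partner of HSP70, had a WT mean of 75.3 ± 2.02 CPM against a KO mean of 70.3 ± 4.55 (edgeR adjusted p = 0.796). It was 1 of the 13 with no overlap between the genotypes, against 3.80% of all genes. Its nearest values were 74.0 CPM in KO and 74.1 CPM in WT. Timm44, of the inner membrane import motor, had a WT mean of 29.4 ± 1.98 CPM against a KO mean of 33.1 ± 4.99, and the protease subunit Afg3l2 a WT mean of 78.2 ± 4.20 CPM against a KO mean of 73.0 ± 4.76.

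Of 31 other ER folding, translocation and degradation genes, 11 lay above and 20 below 0 (median -0.021). Derl3, a degradation channel component, was scarce, with a WT mean of 0.651 ± 0.292 CPM against a KO mean of 1.01 ± 0.131. The translocon subunit Sec61b had a WT mean of 6.92 ± 0.219 CPM against a KO mean of 6.08 ± 0.680, and the ubiquitin ligase Syvn1 a WT mean of 52.7 ± 1.52 CPM against a KO mean of 49.4 ± 2.80. Of 25 other UPR and integrated stress response genes, 7 lay above and 18 below 0 (median -0.044). The ATF4 target Asns, asparagine synthetase, had a WT mean of 94.6 ± 4.32 CPM against a KO mean of 86.4 ± 6.87. The mTORC1 inhibitor Ddit4 had a WT mean of 54.1 ± 9.30 CPM against a KO mean of 61.9 ± 2.15, and Atf5, a stress transcription factor, a WT mean of 15.2 ± 1.68 CPM against a KO mean of 17.1 ± 1.84. The 12 genes named from these 4 lists had edgeR adjusted p from 0.796 to 0.799.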

How the data were processed

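Read counts per Ensembl gene were deposited by the authors as raw, unnormalized whole numbers, 1 column per library. The submitters' processing notes name bcl2fastq 2.17.1.14 and mm10. The kit keeps strand, per the labels' protocols. Not given in the sources used here are aligner, counting tool, annotation and whether counting used strand, so genes with overlapping exons (13 of the 34) or near-identical copies are uncertain. A second annotated entry named Ddit3 overlaps Ddit3 on the same strand and has no row in the count table. Symbols, positions and exon lengths came from GENCODE M21 (31292 IDs matched, 125 did not).

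KO was compared with WT over the whole table in edgeR 4.0.16 (R 4.3.3) with TMM scaling, filterByExpr, a robust quasi-likelihood test and Benjamini-Hochberg adjustment. The SE is the log2 fold change divided by the square root of F, and its 95% interval uses the fit's degrees of freedom. Log2 CPM used a prior count of 2. Genes of a like level lay within 0.5 log2 of the gene's mean. Pairs were tested by exact two-sided permutation over all orders of the libraries, adjusted over the 8 pairs for r and rho separately. Alternatives were DESeq2 1.42.0, limma-voom (limma 3.58.1) with quality weights, DESeq2 size factors, upper quartile factors, no filter, 1 CPM in 4 libraries, the replicate block and each library left out. The edgeR step was tested on simulated data. The members and lists were chosen with earlier results of these data known. Values in every library are given for the most abundant gene of each compartment, the most and least variable genes and the pairs; from other lists up to 3 genes with the lowest p are named. Values by library for Hspa8, Hsf1, Ern1 and the Hspa1a and Hspa1b sum were added after their values were seen. So were Cirbp, Rbm3, Hspb6, Gfap, Aldoc, Slc1a3 and Ttr as named genes.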

Additional observations from a re-analysis of the deposited data

Results flagged for a closer look

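Of 70 groups of 4 libraries (34 genes and Dclk3 in 2 genotypes), 3 held 1 library far from the other 3 by Dixon's criterion at 95%. Chance flags about 1 in 20 groups. Hyou1 in WT replicate 2 stood at 146 CPM, against 124 to 126 CPM in the other 3 libraries; without that library its log2 fold change was -0.014 against -0.074 with it. Trib3 in KO replicate 2 stood at 0.298 CPM, against 0.480 to 0.517 CPM in the other 3 libraries, a difference of a few counts. Dclk3 in WT replicate 2 stood at 39.3 CPM, against 20.8 to 23.5 CPM in the other 3 libraries.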

How the results depend on the processing

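The counts of 34 genes called (0) and without overlap (0) were 0 under every alternative run for them, and the count at an unadjusted p under 0.05 was 0 apart from 1 (Hsf1) without KO replicate 4. Each library left out in turn moved the same count over all genes from 1000 to 556 (without WT replicate 4) or 1777 (without KO replicate 4). The share of all genes whose genotypes did not overlap, 3.80% with every library kept, rose whichever library was dropped. Dropping WT replicate 4 gave the smallest of these shares, 5.03%, and dropping KO replicate 4 the largest, 10.97%. Across 509 refits of single genes the lowest adjusted p was 0.399. Medians by compartment, with a library left out, ran from -0.15 (without KO replicate 4) to -0.00054 (without KO replicate 1) in the cytosolic group, -0.047 (without WT replicate 4) to 0.055 (without WT replicate 2) in the ER folding group, -0.029 to 0.011 for the chaperonin and -0.10 to -0.017 in the UPR group. Dclk3 was called by DESeq2 (log2 fold change -1.80, adjusted p = 7.51e-14) and, in edgeR, with the replicate number as a block (-1.76, adjusted p = 0.00339) and without WT replicate 2 (-1.54, adjusted p = 0.0121); its range with a library left out was -1.88 to -1.54. Same-numbered libraries of both genotypes did not deviate together (r = 0.14, 0.12, -0.22 and -0.014 for replicates 1 to 4), so the numbers were not taken as pairs, and the replicate block called 0 of the 34 genes.

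The sign of a log2 fold change turned in 51 of these refits, 43 of them with a library left out, for 20 genes whose sizes were all at or under 0.079; the cause was not tested. Ranges with a library left out were Hspa1b from -0.10 to 0.15, Hsph1 from -0.19 to 0.049, Dnaja1 from -0.078 to 0.022, Hsp90aa1 from -0.18 to 0.048, Hspd1 from -0.17 to 0.028, Hspe1 from -0.0078 to 0.13, Hspa5 from -0.15 to 0.059, Hsp90b1 from -0.025 to 0.15, Dnajb9 from -0.020 to 0.0028, Dnajc3 from -0.067 to 0.10, Sdf2l1 from -0.10 to 0.092, Pdia3 from -0.063 to 0.095, Pdia4 from -0.12 to 0.050, Pdia6 from -0.024 to 0.068, Calr from -0.040 to 0.088, Canx from -0.079 to 0.025, Creld2 from -0.057 to 0.072, Manf from -0.082 to 0.069, Trib3 from -0.23 to 0.068 and Chac1 from -0.16 to 0.041. In the other 8, limma-voom gave -0.013 for Hspa1b, 0.0010 for Pdia4 and 0.023 for Manf; upper quartile factors 0.0070 for Dnajb9 and 0.0074 for Manf; DESeq2 -0.0061 for Dnajc3 and -0.00091 for Creld2; and its size factors within edgeR -0.0012 for Dnajc3. Pearson's r with a library left out ran from 0.83 to 0.93 for Hspa5 with Hsp90b1 (adjusted p = 0.0593 by exact permutation without KO replicate 1), from 0.91 to 0.93 for Hspa5 with Pdia4 (0.0556 without WT replicate 2), from -0.88 to -0.70 for Hspd1 with Hspe1 (adjusted p = 0.0593 to 0.127 when KO replicate 1, KO replicate 4 or WT replicate 2 was left out), and from -0.062 to 0.61 for Hsp90aa1 with Dnajb1. With 7 libraries fewer pairings exist and the smallest p is larger.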
